A study of Homo sapiens with 8 samples.

Results

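The question addressed here was whether 2 stable lines of SHSY5Y cells, a human neuroblastoma line of neural crest origin, responded alike to neuronal differentiation. The quantity is the difference of responses, which is the change upon differentiation in the line coded V71 minus the same change in the line coded PLKO, on the log2 scale. It was tested for all 18377 genes that stand alone on a row of the array, out of 28869 rows in all, and all 8 arrays entered the test. A difference of 1 on this scale means that the ratio of differentiated to undifferentiated cells was 2-fold larger in V71. The same number is the V71 to PLKO gap after differentiation minus that gap before it.

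Each line was measured in 2 conditions with 2 biological replicates, on laminin throughout. NDF cells stayed in growth medium with serum. DF cells received 10 µM retinoic acid for 5 days and then serum-free medium with 2 nM BDNF for 3 days. Both lines were stable derivatives made with viruses, of which one kind carried an shRNA and the other the pLKO.1-Puro control vector, so the vector backbone was shared and each genotype was represented by a single line. The treatment label gives the shRNA to the PLKO samples and control to the V71 samples, whereas pLKO.1-Puro is described as the control vector in the study's methods. The lines are therefore named by their title codes, and the sign of every difference turns if the codes are read the other way. The target of the shRNA was not analysed here, so the labels could not be checked against it. The mean log2 signal of 9 noradrenergic neuroblast markers lay between 8.0 and 8.54 on every array, although TH, the rate-limiting enzyme of catecholamine synthesis and one of the 9, read between 4.21 and 4.60, no higher than the array medians of 4.60 to 4.68. The mean of 3 Schwann cell markers lay between 3.76 and 3.97, and lower quartiles of the arrays were 3.0 to 3.06. Within a group the arrays correlated at 0.9947 or more (Spearman, across rows) and between groups at 0.9931 or less.

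Retinoic acid acts through nuclear receptors that switch neuroblasts from division to neurite growth, and BDNF acts through the receptor kinase TrkB and the ERK pathway to sustain the neurons that result. SHSY5Y cultures hold neuroblast-like cells and substrate-adherent cells with mesenchymal genes, known as S-type cells. In bulk samples such as these, fewer cells of a kind and less RNA per cell cannot be told apart.

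The responses of V71 and PLKO differed for 256 genes (limma, with the adjusted p below 0.05 and at least a 1.5-fold difference), which is 1.39% of the genes tested. In 200 of them, 1.09% of all genes, the response was more positive in V71, and these are called higher. In 56, 0.305% of all genes, it was more negative in V71, and these are called lower. The median log2 difference was 1.02 among the higher and -1.05 among the lower genes, against -0.00474 over all genes. Before adjustment, 1873 genes (10.2%) had a p under 0.05. Of the 256 genes, 101 (81 higher and 20 lower) kept their call and direction when each of the 8 arrays was left out in turn, and without the moderation of variances across genes 3 genes, ETV1, RFTN1 and SORCS1, were called.

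**Figure D1:**
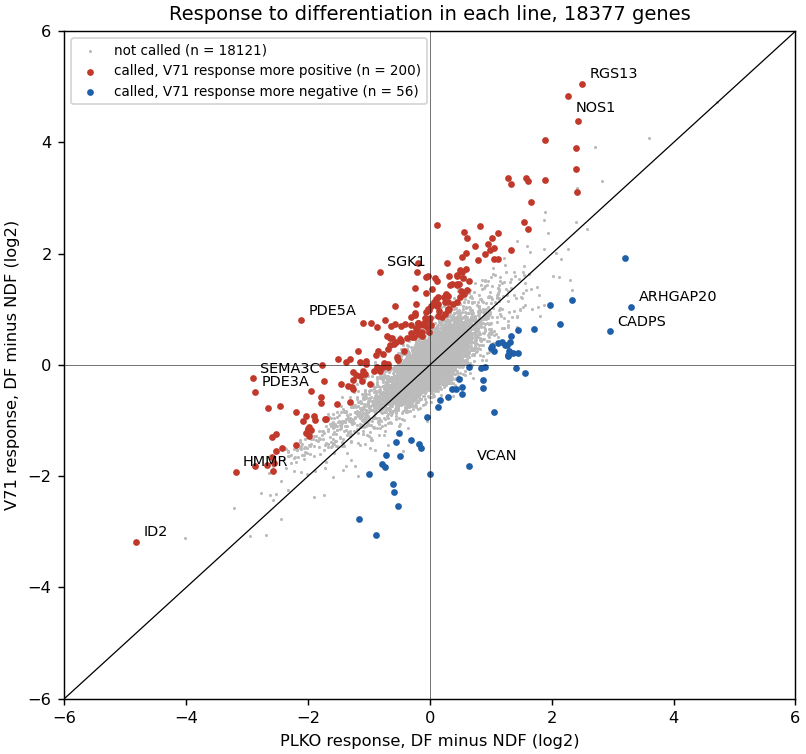
Response of each gene to differentiation (DF minus NDF, log2) in PLKO on the horizontal axis and in V71 on the vertical axis, 1 point per gene; the line marks equal responses. The 200 genes called higher (red) lie above the line and the 56 called lower (blue) below it.

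The called genes were sorted by which line's own response was called. By the same criteria, 1293 genes (7.04%) were called in the PLKO response and 1383 (7.53%) in the V71 response. Among the 256 genes, the V71 response alone was called for 88, a rise for 77 of them and a fall for 11. The PLKO response alone was called for 63, a fall for 42 and a rise for 21. A further 78 genes passed in both lines in the same direction with unequal size. Of these, 32 rose more and 8 fell more in V71, while 30 fell more and 8 rose more in PLKO. In 9 genes both responses were called with opposite signs, and in 18 neither was called. By sign alone, called or not, 71 of the higher genes had a V71 response above 0 and a PLKO response below 0, and 18 of the lower genes had the reverse.

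Seen as gaps between the lines, the 256 genes fell into those that differed before differentiation and those that came to differ after it. The gap was called for 396 of all genes (2.15%) in NDF and for 563 (3.06%) in DF. Among the 256 genes, 105 had a called gap in DF alone, for example NOS1 with -0.23 in NDF and 2.34 in DF, and ARHGAP20 with 0.00 and -2.26. In 82 genes the gap was called in NDF alone. SEMA3C had the lowest NDF gap named here, with a gap of -3.01 in NDF and -0.34 in DF. The gap kept its direction with unequal size in 17 genes and turned in 12, all of the latter from below 0 in NDF to above 0 in DF. It was called in neither condition for 40. On the linear scale, the sign of the difference of responses turned for 10 of the 256 genes, among them BAMBI, CNTN1, DOCK9, GRM8, KIF20A, SPRY1 and TNR, since a larger ratio in one line can go with a smaller difference in signal.

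**Figure D2:**
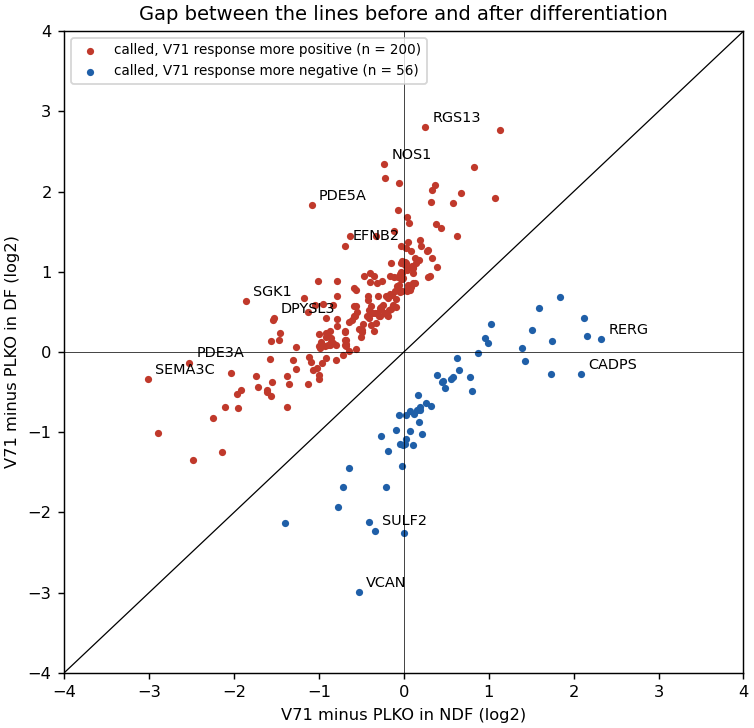
Gap between the lines (V71 minus PLKO, log2) in NDF on the horizontal axis and in DF on the vertical axis for the 256 called genes; the line marks an unchanged gap. Genes near the horizontal line at 0, such as SEMA3C and RERG, had a gap in NDF alone, and those near the vertical line at 0, such as NOS1, in DF alone.

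In 9 genes the responses were called in both lines with opposite signs, and all of these kept their call without each array in turn. PDE5A (probe set 8102532), a phosphodiesterase that breaks down cyclic GMP, had the largest difference of all genes. Its log2 signal was 5.27 and 5.34 in the PLKO NDF arrays and 3.17 and 3.22 in PLKO DF, against 4.29 and 4.15 in V71 NDF and 4.92 and 5.14 in V71 DF. The PLKO arrays were the highest of all in NDF and the lowest of all in DF, and the difference of responses was 2.92 ± 0.14 (SE, 2 arrays per group, limma adjusted p = 5.75e-05). SGK1 (probe set 8129677), a kinase induced by serum and glucocorticoids, read 6.82 and 6.61 in PLKO NDF, 5.82 and 5.98 in PLKO DF, 4.83 and 4.88 in V71 NDF and 6.60 and 6.46 in V71 DF. Its V71 level thus passed that of PLKO upon differentiation, with a difference of 2.50 ± 0.15 (adjusted p = 0.000108).

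The other genes of this class were smaller in size. GPC3 (probe set 8175234), a cell surface proteoglycan, had responses of -1.10 in PLKO and 0.75 in V71 and a difference of 1.85 ± 0.13. SPRY2 (probe set 7972217), a feedback inhibitor of receptor tyrosine kinase signalling, differed by 1.71 ± 0.13. GAP43 (probe set 8081810), a growth cone protein, read 9.41 and 9.35 in PLKO NDF and 9.40 and 9.48 in V71 NDF, levels that overlapped, and then 8.54 and 8.74 in PLKO DF against 10.25 and 10.24 in V71 DF. Its difference was 1.55 ± 0.13 (adjusted p = 0.000458). The transcriptional repressors RUNX1T1 (probe set 8151768) and TSHZ2 (probe set 8063437) differed by 1.54 ± 0.12 and 1.34 ± 0.13, and a dimmer row of TSHZ2 gave 1.54.

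VCAN and SULF2 went the other way, and both act in the extracellular matrix. VCAN (probe set 8106743), the proteoglycan versican, read 6.99 and 7.02 in PLKO NDF and 7.60 and 7.72 in PLKO DF, against 6.37 and 6.58 in V71 NDF and 4.70 and 4.62 in V71 DF. The difference was -2.46 ± 0.14 (adjusted p = 9.28e-05), the lowest of all genes. SULF2 (probe set 8066822), a sulfatase that edits heparan sulfate outside the cell, had responses of 1.05 in PLKO and -0.85 in V71 and a difference of -1.89 ± 0.15.

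**Figure D3:**
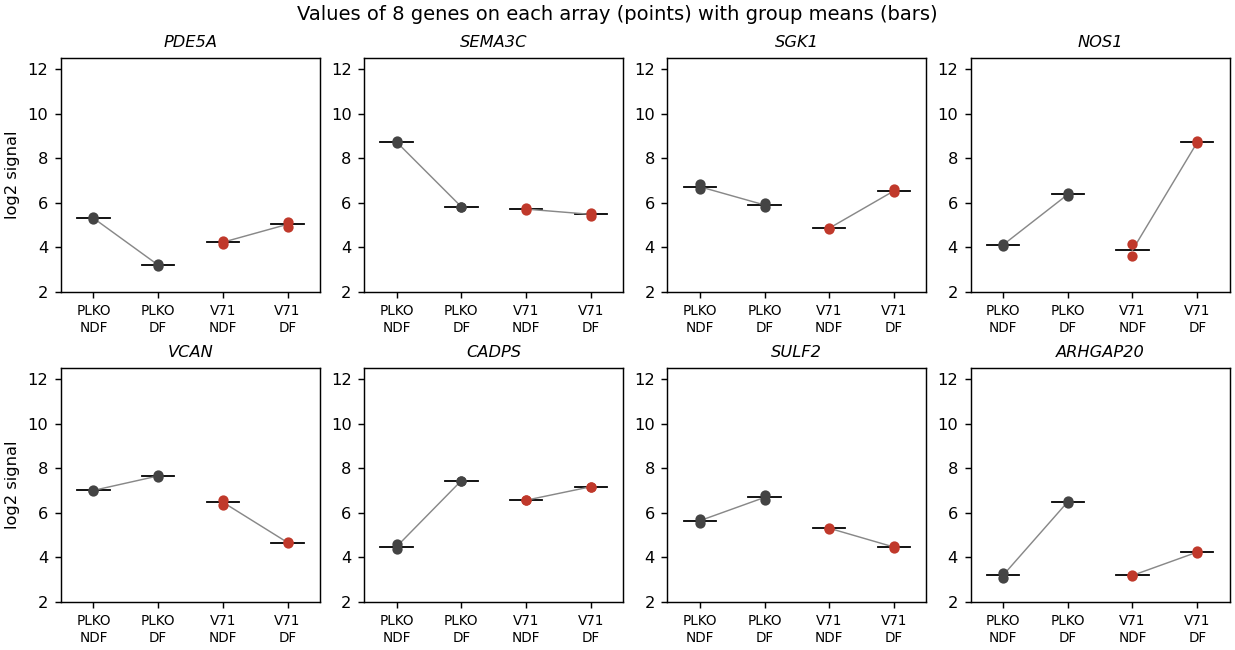
Log2 signal of 8 genes on each of the 8 arrays (points, PLKO dark and V71 red), with group means as bars joined by a line from NDF to DF within each line. In PDE5A, SGK1, VCAN and SULF2 the joining lines slope in opposite directions in PLKO and V71, and replicates lie close together beside these slopes.

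The 12 genes with the highest differences all kept their call without each array. NOS1, the neuronal synthase of nitric oxide, which stimulates the making of cyclic GMP, read 4.14 and 4.06 in PLKO NDF and 6.29 and 6.45 in PLKO DF, against 3.61 and 4.12 in V71 NDF and 8.76 and 8.66 in V71 DF. It rose in both lines, by 2.27 and 4.84, and the difference was 2.58 ± 0.21 (limma adjusted p = 0.000392). PDE3A, a phosphodiesterase of cyclic AMP and cyclic GMP, read 5.73 and 5.98 in PLKO NDF and between 2.79 and 3.33 on the other 6 arrays. PDE3A was thus bright in a single group, and its difference of 2.39 ± 0.15 (adjusted p = 0.000122) went with a fall of 2.87 in PLKO and a response of -0.48 in V71. Both DF groups of PDE3A were below the lower quartile of the arrays, and with dim values raised to that quartile its difference was 2.51.

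RGS13, which shortens G protein signals, had responses of 2.50 in PLKO and 5.05 in V71, with 5.44 and 5.51 in PLKO DF against 8.43 and 8.12 in V71 DF. It read 2.85 and 3.09 in PLKO NDF and 3.40 and 3.04 in V71 NDF. The PLKO NDF mean of 2.97 was below the lower quartile of the arrays, so the size of its PLKO response is limited by background. SEMA3C, a secreted guidance cue for axons and neural crest cells, read 8.66 and 8.79 in PLKO NDF, whereas the other 6 arrays lay between 5.41 and 5.82. LIX1 read 5.70 and 5.59 in V71 DF and at most 3.53 elsewhere. The myosin heavy chain gene MYH15 rose in both lines and read 7.32 and 7.40 in V71 DF, 5.24 and 5.27 in PLKO DF and at most 3.48 in NDF. The differences of LIX1 and MYH15 were 2.39 ± 0.16 and 2.16 ± 0.14. CNTNAP5, EFNB2, DPYSL3 and the lipid raft protein RFTN1 completed the group with differences of 2.08, 2.02, 1.96 and 1.93. A dimmer row of RFTN1, with a mean log2 signal of 3.11, gave -0.01.

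The 12 genes with the lowest differences also kept their call without each array. CADPS, which primes dense-core vesicles for release, read 4.58 and 4.38 in PLKO NDF and 7.44 and 7.45 in PLKO DF, against 6.55 and 6.58 in V71 NDF and 7.18 and 7.16 in V71 DF. V71 started higher, ended slightly lower, and the difference was -2.36 ± 0.13 (adjusted p = 9.28e-05). ARHGAP20 rose by 3.31 in PLKO and by 1.05 in V71, from an NDF gap of 0.00. NTNG2, a netrin anchored to the membrane, rose by 1.57 in PLKO, and its response in V71 was -0.14. In further genes the V71 level was the high one in NDF, and the gap was called in NDF alone. They are RERG, EDIL3, CNTNAP4, ENC1, SEMA3A and ADM. Their NDF gaps were 2.32, 1.73, 2.16, 2.12, 1.75 and 1.43. Their DF gaps were 0.16, -0.28, 0.19, 0.43, 0.14 and -0.11. RERG and SEMA3A were below the lower quartile of the arrays in both DF groups, where signals are close to background. The peptide hormone gene ADM and the protease gene CORIN had differences of -1.54 and -1.47.

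Among genes of mitosis, 9 of 44 had a called difference, in each a smaller fall in V71. All 44 analysed genes of a list of G2 and M phase genes fell in PLKO and 43 of them in V71, with median responses of -2.0 and -1.46. The difference was above 0 in 43 of 44, with a median of 0.55, and the 9 genes (20.5%) were all called higher, against 1.09% of all genes. HMMR, a spindle and hyaluronan binding protein, read 6.70 and 6.98 in PLKO NDF and 3.56 and 3.74 in PLKO DF, against 6.83 and 6.53 in V71 NDF and 4.84 and 4.69 in V71 DF. The NDF levels overlapped and the DF levels did not, and the difference was 1.27 ± 0.19 (adjusted p = 0.0137). The others were the spindle assembly genes DLGAP5 and ASPM (1.05 and 0.98), the centromere proteins CENPF and CENPE (0.94 and 0.94), PRC1 of the central spindle (0.80), NDC80 of the kinetochore (0.78), the checkpoint kinase BUB1 (0.75) and the kinesin KIF20A (0.67). TOP2A, the brightest member not called, differed by 0.68 (95% interval 0.38 to 0.99, adjusted p = 0.0585). The calls of this list were close to the threshold and none was kept without every array. The count was 0 without PLKO NDF replicate 3, without PLKO DF replicate 1 or without V71 DF replicate 1, 1 without PLKO NDF replicate 2, 2 without V71 NDF replicate 3, 4 without V71 DF replicate 2, 6 without V71 NDF replicate 2 and 7 without PLKO DF replicate 2. It was 2 with the replicate block, 13 with a trended and robust prior, and 0 with dim values raised to the lower quartile, without moderation of variances or when tested against a 1.5-fold difference.

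Few S phase genes or histone genes of the large cluster passed the test, as held for all genes, of which 1.39% were called. Of 44 analysed S phase genes, 40 had a difference above 0, with a median of 0.24, but 0 were called in either direction (limma), and MCM7, the brightest, differed by -0.04 (95% interval -0.32 to 0.24). Of 49 analysed genes of histone cluster 1, which supply the chromatin of newly made DNA, 42 fell in PLKO and 39 in V71. The difference was above 0 in 44 of 49 with a median of 0.31, and 1 gene was called in each direction. H3C10 read 6.60 and 6.65 in PLKO NDF, 4.77 and 4.92 in PLKO DF, 7.12 and 7.01 in V71 NDF and 6.39 and 6.39 in V71 DF, with a difference of 1.11 ± 0.13 (adjusted p = 0.00309). H4C6 differed by -1.16 ± 0.20 (adjusted p = 0.0283), a call lost without any of 5 arrays with an adjusted p of up to 0.124. Histone genes are near copies of each other, so a probe set may read its neighbours. Mean log2 levels over the 44 mitotic genes were 7.34 and 7.37 in PLKO NDF, 7.54 and 7.46 in V71 NDF, 5.32 and 5.44 in PLKO DF and 6.11 and 6.05 in V71 DF, so the level of dividing-cell genes moved with the difference, and its part in the other results was not tested.

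Promoters of the mitotic genes are known for CCAAT boxes, which bind the factor NF-Y. As examples, 3 promoters that hold this letter run are printed, and they were not drawn by a rule. The letters are the 250 bases before the RefSeq start in GRCh38.p14, on the gene's strand from 5′ to 3′, with matches to CCAAT or AGGTCA on either strand in capitals. HMMR lies at chr5:163460382-163460631 (+), KIF20A at chr5:138178862-138179111 (+) and BUB1 at chr2:110678064-110678313 (-).
HMMR: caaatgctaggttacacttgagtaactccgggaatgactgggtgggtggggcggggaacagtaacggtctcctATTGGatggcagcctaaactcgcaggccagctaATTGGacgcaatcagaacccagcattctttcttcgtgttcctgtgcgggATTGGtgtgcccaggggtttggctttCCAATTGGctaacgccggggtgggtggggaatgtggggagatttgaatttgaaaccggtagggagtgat
KIF20A: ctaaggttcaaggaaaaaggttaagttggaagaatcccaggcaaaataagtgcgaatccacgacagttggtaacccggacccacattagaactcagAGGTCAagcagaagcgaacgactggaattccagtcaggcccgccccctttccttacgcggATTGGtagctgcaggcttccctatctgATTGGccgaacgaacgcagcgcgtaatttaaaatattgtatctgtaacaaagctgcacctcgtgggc
BUB1: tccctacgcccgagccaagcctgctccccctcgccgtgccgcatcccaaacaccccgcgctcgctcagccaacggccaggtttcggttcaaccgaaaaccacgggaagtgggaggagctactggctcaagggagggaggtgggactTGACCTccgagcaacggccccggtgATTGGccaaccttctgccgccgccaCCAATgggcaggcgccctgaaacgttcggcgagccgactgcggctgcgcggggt
Capitals mark 5 CCAAT matches in HMMR, of which 2 share bases on opposite strands, and 3 matches each in KIF20A and BUB1, 1 of them AGGTCA in each. In windows of 250 bases before to 50 after the start, CCAAT was held by 28 of the 39 matched mitotic promoters (71.8%), 39 of 44 of histone cluster 1 (88.6%), 65 of 169 of the higher genes (38.5%), 23 of 42 of the lower genes (54.8%) and 36.3% of all 14210 matched promoters. AGGTCA, a core element of retinoic acid receptors, was held by 6.51% of the higher, 9.52% of the lower and 11.1% of all promoters. TATAAA was held by 68.2% of the histone promoters, 8.28% of the higher, 4.76% of the lower and 8.97% of all. TGACGTCA, the full cyclic AMP response element, was held by 2.37%, 2.38% and 2.65% of the higher, lower and all promoters. These counts describe letters and not binding.

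Of 20 analysed genes of ERK pathway output, 5 (25%) were called higher and 0 lower, against 1.09% and 0.305% of all genes. The difference was above 0 in 12 of the 20, with a median of 0.16 and a lowest value of -0.51. SPRY1, a feedback inhibitor like SPRY2, read 6.24 and 6.25 in PLKO NDF and 8.09 and 8.17 in PLKO DF, against 4.31 and 4.35 in V71 NDF and 7.73 and 7.59 in V71 DF. Its difference was 1.44 ± 0.12 (adjusted p = 0.000458), and since V71 started far lower, the sign turned on the linear scale. ETV1, a transcription factor of the pathway, read between 6.32 and 6.67 on the 4 NDF arrays and on those of PLKO DF, and 8.49 and 8.50 in V71 DF. Its difference was 1.55 ± 0.11 (adjusted p = 0.000206). DUSP6, a phosphatase of ERK, differed by 1.10 ± 0.13. These genes and SPRY2 were called without each array in turn, whereas DUSP4 (0.68, adjusted p = 0.0439) was lost without any of 7 arrays. CCND1, the brightest member not called, differed by -0.27 (95% interval -0.59 to 0.05). SPRY1, SPRY2, DUSP4 and DUSP6 had gaps of -1.91, -1.57, -0.72 and -0.92 in NDF that narrowed to -0.48, 0.14, -0.03 and 0.18 in DF. ETV1 did not share this pattern, with gaps of 0.32 in NDF and 1.87 in DF.

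**Figure D4:**
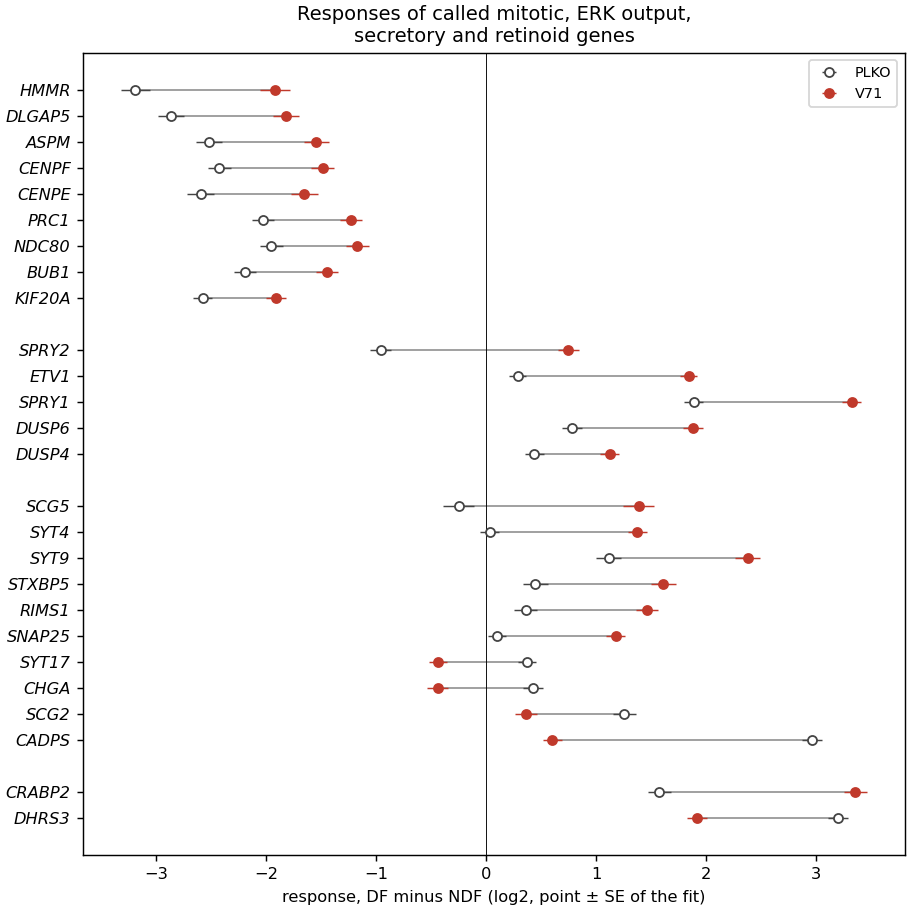
Responses (DF minus NDF, log2, with the SE of the fit as bars) of PLKO (white points) and V71 (red points) for called genes of mitosis, ERK output, secretion and retinoid handling, from top to bottom. The V71 point lies to the right of the PLKO point for every mitotic and ERK gene shown, and to the left for SYT17, CHGA, SCG2, CADPS and DHRS3.

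The retinoic acid genes were called in opposite directions. Of 23 analysed genes of the retinoic acid response, 1 was called higher, 1 lower, and the median difference was 0.02. Over all genes, 1.09% were called higher and 0.305% lower. CRABP2, which carries retinoic acid to its receptors, read 5.31 and 5.18 in PLKO NDF and 6.69 and 6.95 in PLKO DF, against 4.98 and 4.84 in V71 NDF and 8.29 and 8.25 in V71 DF. Its difference was 1.78 ± 0.15 (adjusted p = 0.000458). DHRS3, a retinaldehyde reductase, read 3.86 and 3.79, then 6.96 and 7.09 in PLKO, and 3.88 and 4.0, then 5.83 and 5.89 in V71. Both genes rose in both lines, and DHRS3 rose less in V71, with a difference of -1.28 ± 0.13 (adjusted p = 0.00147). MEIS2, the brightest member not called, differed by 0.07 (95% interval -0.21 to 0.34). Of 27 analysed HOX genes, which retinoic acid is known to induce in order, HOXC5 (0.90) and HOXD4 (0.73) were called higher, each lost without 7 or more of the arrays, and HOXD9 differed by -0.12. Of 28 analysed early genes of BDNF and activity, NPTX2 alone was called (0.70), and this call was lost without any single array.

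Guidance cues and adhesion molecules were called in both directions. Of 56 analysed axon guidance genes, 3 were called higher (SEMA3C, EFNB2 and PLXNA4) and 3 lower (NTNG2, SEMA3A and ROBO2), with a median of 0.06. The shares over all genes were 1.09% higher and 0.305% lower. EFNB2, a membrane ligand of Eph receptors, read 6.80 and 6.86 in PLKO NDF and 6.59 and 6.69 in PLKO DF, against 6.12 and 6.15 in V71 NDF and 7.90 and 8.03 in V71 DF, a difference of 2.02 ± 0.12. SEMA3A, which repels axons, differed by -1.61 ± 0.19. SLIT3, the brightest member not called, differed by 0.27 (95% interval -0.04 to 0.59). The calls of PLXNA4 (1.0) and ROBO2 (-1.24) were lost without any of 6 arrays and without either PLKO NDF replicate 2 or PLKO DF replicate 1, respectively, with adjusted p of up to 0.0943 and 0.0565.

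Among 30 analysed neural adhesion molecules, 5 were called higher and 1 lower, against 1.09% and 0.305% of all genes. CNTNAP5, a neurexin-like membrane protein, differed by 2.08 ± 0.14, and its relative CNTNAP4 by -1.97 ± 0.14. CNTN4, a contactin of axons, fell in both lines, with responses of -2.59 in PLKO and -1.29 in V71 and a difference of 1.30 ± 0.17 (adjusted p = 0.0058). CADM1, ALCAM and CNTN1 were called at 0.85, 0.82 and 0.85, each lost without 4 or more arrays, and NCAM1 differed by -0.18. The cadherins CDH11 and CDH18 went apart. CDH11 read 6.89 and 6.84 in PLKO NDF, 7.45 and 7.48 in PLKO DF, 4.61 and 4.91 in V71 NDF and 6.82 and 6.74 in V71 DF, a difference of 1.42 ± 0.15. CDH18 was at 4.32 and 4.19 in V71 NDF and between 2.66 and 2.89 on all other arrays, a difference of -1.34 ± 0.14. These 3 other groups were below the lower quartile of the arrays, so the size is limited by background, and it was -1.25 with dim values raised to that quartile. Among 48 analysed genes of the extracellular matrix, LAMA4 (1.18), LUM (1.23), TNR (1.13) and DCN (0.90) were called higher and VCAN lower, and LAMA4 and VCAN alone of these kept the call without each array. LUM was below the lower quartile in 3 groups and lost its call with dim values raised. Of the 4 higher genes, 1 was called without PLKO NDF replicate 3, and 2 without PLKO DF replicate 1, either V71 DF array or V71 NDF replicate 2.

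Genes of the neuronal cytoskeleton and of vesicle release were called in both directions, as were all genes, with 200 (1.09%) higher and 56 (0.305%) lower. Of 35 analysed genes of the neuronal cytoskeleton, 4 were called higher and 2 lower, and of 64 analysed genes of the actin and spectrin cytoskeleton 4 were called higher and 0 lower. DPYSL3, a growth cone protein that binds tubulin, rose by 2.43 in PLKO and 4.39 in V71, from 6.58 and 6.66 to 9.03 and 9.07 and from 5.01 and 5.16 to 9.41 and 9.54. DCX, which bundles microtubules in migrating neurons, read 8.52 and 8.45 in PLKO NDF and 7.92 and 7.90 in PLKO DF, against 9.10 and 9.22 in V71 NDF and 9.81 and 9.98 in V71 DF. Its difference was 1.31 ± 0.13 (adjusted p = 0.00137). DCLK1, a kinase related to DCX, went the other way with -1.11 ± 0.14, as did ENC1, an actin binding protein, with -1.69 ± 0.15. CAP2, a regulator of actin, and ANK2, which anchors membrane proteins to spectrin, differed by 1.32 ± 0.13 and 1.03 ± 0.11. STMN2 and ACTB, the brightest not called, differed by 0.10 and 0.21.

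In the synaptic vesicle list, 5 of 51 analysed genes were called higher and 2 lower, with a median of 0.04, against 1.09% and 0.305% of all genes. SYT4, a synaptotagmin, read 9.25 and 9.32 in PLKO NDF, 9.32 and 9.33 in PLKO DF, 8.44 and 8.30 in V71 NDF and 9.77 and 9.73 in V71 DF, a difference of 1.34 ± 0.12. SYT9 (1.26), RIMS1 (1.10) and SNAP25 (1.08), the last a SNARE protein of vesicle fusion, also kept their call without each array. STXBP5 (1.17) and SYT17 (-0.81) lost it without PLKO NDF replicate 2 or replicate 3, with adjusted p of up to 0.053 and 0.0802. Within the secretory granule and neuropeptide list, 3 of 25 analysed genes were called higher and 3 lower. SCG5, a chaperone of a prohormone convertase, read 4.32 and 4.41 in PLKO NDF, 3.96 and 4.27 in PLKO DF, 5.56 and 5.43 in V71 NDF and 7.07 and 6.70 in V71 DF, with a difference of 1.64 ± 0.20 (adjusted p = 0.00435). The granins SCG2 (-0.89) and CHGA (-0.87) were called lower and their relative CHGB, at 0.79 (95% interval 0.40 to 1.19, adjusted p = 0.0939), was not called. Both of the granin calls were lost without any of 6 arrays.

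Calcium and ion channel genes were called in both directions, and few of the calls were firm. For comparison, 1.09% of all genes were called higher and 0.305% lower. Of 50 analysed genes of calcium channels and the calmodulin pathway, NOS1 was called higher and 3 were called lower. These 3 were the sodium-calcium exchanger SLC8A3 (-0.91), the ryanodine receptor RYR2 (-0.81) and the channel subunit CACNA2D1 (-0.67). They lost their calls without 3, 7 and 8 of the arrays, and ATP2A2, the brightest not called, differed by 0.01 (95% interval -0.28 to 0.29). Among 49 analysed potassium and sodium channel genes, the sodium channel SCN9A differed by 1.03 ± 0.14 and kept its call. KCNG1 was called lower at -1.28 on its brighter row and gave -0.20 on the other. Of 40 analysed glutamate, GABA and nicotinic receptor genes, GRM8 (1.28) and GRM7 (0.96) were called higher and CHRNA7 (-1.15) and GRIA2 (-0.99) lower, and GRM8 alone of these kept its call without each array. GRIA2 lost it without PLKO NDF replicate 3, with an adjusted p of 0.0508.

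The S-type genes that were called went in 1 direction, while the list as a whole was centred on 0. Of 45 analysed S-type genes, 6 (13.3%) were called higher and 0 lower, against 1.09% and 0.305% of all genes. The difference was above 0 in 23 of the 45, with a median of 0.01 and a lowest value of -0.77. VIM, the intermediate filament vimentin, read 4.77 and 5.12 in PLKO NDF and between 2.80 and 3.25 on the other 6 arrays, with a difference of 1.44 ± 0.18 (adjusted p = 0.00446). SNAI2, a mesenchymal repressor, read 6.43 and 6.61 in PLKO NDF and between 4.49 and 5.08 elsewhere, with a difference of 1.11 ± 0.13 (adjusted p = 0.00408). Both genes were thus highest in PLKO NDF and fell in PLKO. On the other 6 arrays VIM lay near the lower quartiles of 3.0 to 3.06, where signals are close to background. ANXA2 (1.64), LUM (1.23), DCN (0.90) and NOTCH2 (0.85) lost their calls without 3 to 6 of the arrays, and 2 to 5 of the list were called with 1 array left out, with 2 called without PLKO NDF replicate 3. TWIST1, the brightest member not called, differed by 0.22 (95% interval -0.03 to 0.47), and PDGFRA by -0.26. Over the 9 defining S-type markers the mean log2 level was 5.55 and 5.59 in PLKO NDF, 5.05 and 5.01 in PLKO DF, 4.81 and 4.86 in V71 NDF and 4.71 and 4.60 in V71 DF, with none below the lower quartile in all 4 groups. This level was highest in PLKO NDF, as were SEMA3C and PDE3A, but it was also higher in PLKO DF than in V71 NDF. The 9 markers include VIM and SNAI2 themselves. They also include PDGFRA, which read 9.02 and 9.11 in PLKO DF and 6.40 and 6.55 in V71 NDF. FN1 and TWIST1 were highest in PLKO NDF as well. The values of CD44, COL1A1 and YAP1 overlapped between PLKO NDF and V71 NDF, and PRRX1 was lower in PLKO NDF. The marker mean was thus not a trait of every marker. The part of this level in the results of SEMA3C and PDE3A was not tested. Of 18 analysed noradrenergic genes, NPY (1.44) and MYCN (0.65) were called higher and CHGA lower, and none kept its call without each array.

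A few called genes stood outside these groups. ID2, an inhibitor of differentiation factors, fell by 4.82 in PLKO and 3.18 in V71, from 7.94 and 8.06 to 2.96 and 3.39 and from 8.18 and 7.90 to 4.94 and 4.79, a difference of 1.65 ± 0.21 (adjusted p = 0.00579). HEY1, a target of Notch signalling, differed by 1.27 ± 0.15 and the Wnt antagonist SFRP1 by 0.98 ± 0.12, and with NOTCH2 and JAG1 they made 5 higher against 1 lower, BAMBI, of 62 analysed Wnt, BMP and Notch genes. The kinase PLK2 was the one p53 target called of 25 analysed, with 2.40 in PLKO and 3.89 in V71. Of 49 analysed receptor tyrosine kinases, FGFR2 (0.94) and ROR1 (0.71) were called, each lost without 5 or more arrays. The share called over all genes was 1.39%.

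**Figure D5:**
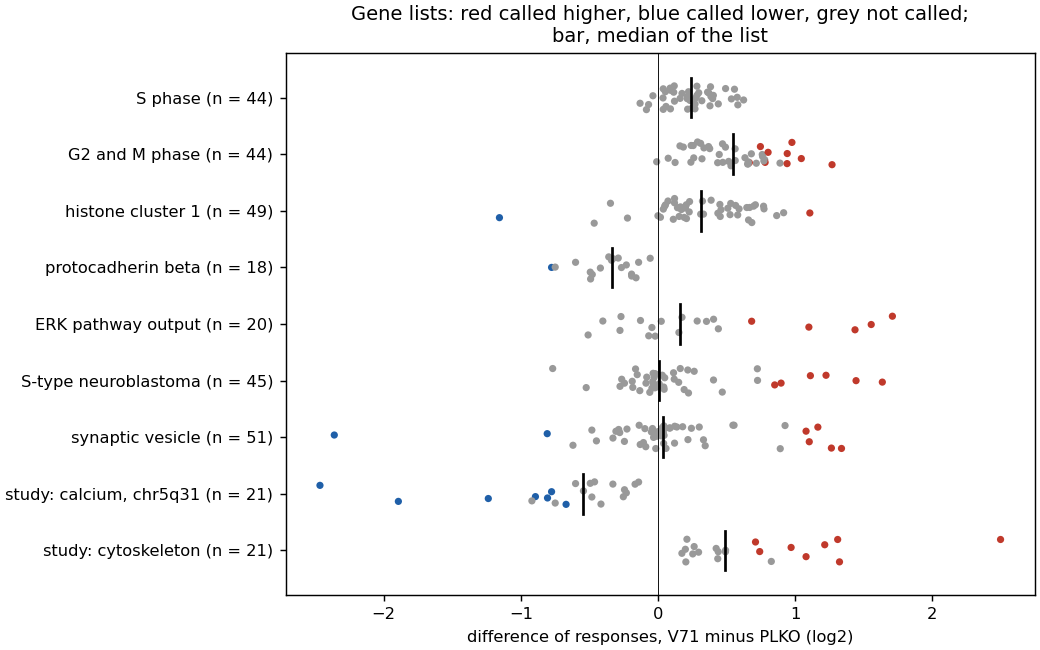
Difference of responses (V71 minus PLKO, log2) of every analysed gene of 9 lists, red where called higher, blue where called lower and grey where not called, with a bar at the median of the list; vertical spread within a list has no meaning. The G2 and M phase list, all but 1 gene, and the study's cytoskeleton list lie to the right of 0, the protocadherin beta and the study's calcium lists to the left, and the S-type list is centred on 0 with 6 red genes.

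The study listed genes that responded to differentiation in 1 line alone, and their members are given here by the difference itself. Because the lists were drawn from these same arrays, the direction of their members gives no independent support. Of 12 histone genes listed as reduced in the control alone, 7 were analysed, and 0 were called in the difference (limma), although all 7 lay above 0, from 0.12 for H1-4 (95% interval -0.36 to 0.60) to 0.87 for H1-3 (adjusted p = 0.134). All 7 fell in PLKO and 5 of them also fell in V71 under the criteria used here. Of 22 genes of calcium binding and of chr5q31 listed as induced in the control alone, 21 were analysed and all lay below 0. Of these, 7 (33.3%) were called lower, against 0.305% of all genes. The 7 were VCAN, SULF2, the metalloproteinase MMP15 (-1.24), SCG2, RYR2, the protocadherin PCDHB11 (-0.78) and CACNA2D1. PCDHB11 was the one called gene of the whole protocadherin beta cluster, of which all 18 analysed genes lay below 0 with a median of -0.33. PCDHB3, the brightest, differed by -0.42 (95% interval -0.78 to -0.06), and PCDHB genes are similar in sequence. With 1 array left out, 3 to 5 of the 21 were called. VCAN, SULF2 and MMP15 kept their call without each array, and the other 4 of the 7 were all lost when PLKO NDF replicate 3, V71 NDF replicate 2 or V71 DF replicate 2 was left out.

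Of 24 cytoskeleton binding genes listed as induced in the shRNA line alone, as the study names it, 21 were analysed and all lay above 0 with a median of 0.49. The number called higher was 8 (38.1%), against 1.09% of all genes. The 8 were SGK1, CAP2, DCX, the calmin gene CLMN (1.22), SNAP25, PDLIM5 (0.97), dystrophin DMD (0.74) and EPB41L5 (0.71). SGK1, CAP2, DCX and SNAP25 kept their call without each array, and the other 4 were all lost without PLKO NDF replicate 3, without V71 DF replicate 1 and without either V71 NDF array. Over these fits 4 to 9 of the list were called. The tropomodulin TMOD1, the brightest, differed by 0.26 (95% interval -0.02 to 0.54).

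The study also listed genes by whether the lines differed in one condition or in both. Those lists were drawn from these arrays by the gaps whose change is the difference of responses, so their shares called follow in part from how they were chosen and are given as a description. Of 63 analysed genes listed for NDF alone, 37 were called higher and 12 lower (77.8%), and of 133 listed for DF alone 44 were called higher and 18 lower (46.6%). Of 34 listed for both conditions 3 were called higher and 1 lower (11.8%), among them ABCA12 (1.47) and TRHR (-0.72). Over all genes the share called was 1.39%. Within the lists of the DF comparison, synapse genes had 6 higher and 4 lower of 20 analysed, neuron projection genes 8 and 3 of 20, and nervous system development genes 12 and 5 of 25. LRRC7, a scaffold of the postsynaptic density, was among them at 1.63 ± 0.17, from 2.61 to 2.97 on the NDF and PLKO DF arrays to 4.20 and 4.34 in V71 DF. Its other 3 groups were below the lower quartile, and with dim values raised to it the difference was 1.23.

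Genes had also been chosen for qRT-PCR. Of the 14 of these considered here, the normalizer included, 12 were analysed here and 8 were called in the difference: CNTN1, TNR, CDH11, CDH18, CNTN4, CADPS, NOS1 and NTNG2. The other 4 were not called. SEMA5A, a semaphorin, had responses of -0.82 and -0.82, and its difference was -0.01 (95% interval -0.29 to 0.28) beside gaps of -1.39 in NDF and -1.40 in DF. The matrix protein gene TNC differed by 0.40 (95% interval -0.17 to 0.98), the exchange factor gene ARHGEF28 by 0.51 (0.02 to 0.99, adjusted p = 0.512), and the normalizer RPS9 by 0.24 (-0.04 to 0.53).

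No gene was called (limma) in the lists of sterol synthesis (20 analysed), the integrated stress response (30), the interferon response (40), Schwann cells and myelin (16) or neurexins, neuroligins and calsyntenins (16), and ADM alone was called in the list of hypoxia and glycolysis (34). Over all genes 1.39% were called, so lists of this size would hold few calls at that share. The median differences of these 6 lists were 0.17, -0.04, 0.00, -0.04, -0.08 and -0.02. Their brightest members not called were SQLE (-0.04), XPOT (-0.07), IFI6 (0.29), PXMP2 (-0.20), CLSTN1 (-0.17) and GAPDH (-0.06). PXMP2 encodes a peroxisomal membrane protein and is not a myelin gene. The count and median given for the Schwann cell and myelin list include it. At the median standard error of 0.14, the unadjusted 95% interval of a difference reached 0.32 to either side. The smallest difference called was 0.60, and larger ones such as those of TOP2A and CHGB were not called, so a difference that was not called is not shown to be absent.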

How the data were processed

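Total RNA of 8 SHSY5Y cultures, 2 in each of 4 groups, was hybridised to 1-colour Affymetrix Human Gene 1.0 ST arrays. The deposited values are log2 signals that the authors had made with RMA in Partek 6.5, which corrects background, quantile normalizes the arrays and summarises probes. They were used as deposited. Array medians lay between 4.60 and 4.68. With arrays there is no count behind a value, and precision is limited by the 2 arrays per group, which the labels call biological replicates.

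A linear model of the 4 groups was fitted to all 28869 rows in limma 3.58.1 (R 4.3.3) with moderated variances, and p-values were adjusted over all rows (Benjamini-Hochberg). The fit had 4 residual degrees of freedom and a median residual SD of 0.0996. Calls required an adjusted p below 0.05 together with a fold of 1.5 or more. Genes are the 18377 symbols on rows with exactly 1 symbol (19310 rows; 1752 rows had several symbols and 7807 had none), and where a gene had several rows (685 genes) the brightest stood for it. The procedure was tested on simulated data. All adjusted p in the text come from this limma fit, and errors are its standard errors.

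Named genes are the 12 highest and 12 lowest called, up to 4 called genes and the brightest gene not called of each list, genes with called responses in opposite directions, the qRT-PCR genes, and SGK1, RUNX1T1, TSHZ2 and MYH15. Other called genes, such as KIF20A, BUB1, CENPE, DUSP4, ROBO2, SNAP25, RIMS1, DCLK1, NOTCH2, JAG1, DCN, SORCS1 and EPB41L5, and PDGFRA and H1-3, which were not called, were named after their values were seen. The 30 gene lists from general knowledge and 9 from the study, like the question itself, were chosen with earlier results of these data known. Promoters are RefSeq sequences of GRCh38.p14, matched by symbol for 14210 genes. Alternatives were other variance models, normalizations, filters, thresholds, row rules, a replicate block and leaving out each array. Some items are not reported here.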

Additional observations from a re-analysis of the deposited data

Results flagged for a closer look

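In 9 genes the responses of the 2 lines were called in opposite directions and the difference between them passed its own test (limma). The log2 difference of responses (V71 minus PLKO) was 2.92 for PDE5A, 2.50 for SGK1, 1.85 for GPC3, 1.71 for SPRY2, 1.55 for GAP43, 1.54 for RUNX1T1 and 1.34 for TSHZ2, which responded with a rise in V71 and a fall in PLKO. It was -2.46 for VCAN and -1.89 for SULF2, which rose in PLKO and fell in V71.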

How the results depend on the processing

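No called gene that the text names by its rule reversed its direction on the log2 scale under any alternative run (on the linear scale the sign turned for 10 of the 256 called genes). The counts of 200 higher and 56 lower genes became 3 and 0 without moderation of variances, 35 and 10 when tested against a 1.5-fold difference, and 104 and 29 at a fold of at least 2. Leaving out 1 array gave 97 to 185 higher and 23 to 45 lower genes, the fewest without PLKO NDF replicate 3 and the most without PLKO DF replicate 2. Raising dim values to the lower quartile gave 138 and 39, and the remaining normalizations, filters, row rules and variance models gave 191 to 246 and 53 to 68. No label ties the replicate numbers to a shared culture. The deviations of same-numbered V71 and PLKO arrays correlated at -0.18 in NDF and 0.19 in DF. With a single value in each condition, whether the arrays were paired cannot be decided. With the replicate block 150 higher and 40 lower genes were called, and 182 of the 256 calls were kept. Of the 92 called genes named by the rule, 73 kept their call with the block and 59 to 80 with 1 array left out. Apart from no moderation, the higher fold and the test against 1.5-fold, 101 of the 256 genes were called under every alternative that tested them, and 3 of these 101 were not tested where dim rows were left out.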
